A study of Mus musculus with 13 samples.

Results

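The genes described here are 10 that mark lipid-associated macrophages, a macrophage state defined by the uptake, breakdown and export of lipid. They are Apoe, Trem2, Gpnmb, Lpl, Fabp5, Cd9, Lgals3, Cd36, Lipa and Abca1, chosen by name and matched to the gene symbols of the count matrices, and they make up 10 of the 32285 genes listed. All 10 were found once each. Single-cell RNA-seq (scRNA-seq) was performed on 10 colon tumors and 3 samples of adjacent mucosa, with the 3' chemistry of 10x Genomics, in which each captured RNA molecule is counted once as a unique molecular identifier (UMI). Every sample came from C57BL/6J mice of the genotype ApcMin/+; p16cis/cis, which joins a germline Apc mutation that starts intestinal tumors with an engineered p16 allele that gains promoter methylation, and every mouse was on the supplemented diet, an NIH-31 diet with added choline, betaine, folic acid and vitamin B12. No sample came from a control diet, so each comparison is between tissues, cell classes or mice. The labels trace the 13 libraries to 3 mice: mouse A (24 weeks, mucosa 2 and tumors 5 to 8), mouse B (23 weeks, mucosa 3 and tumors 9 and 10) and mouse C (20 weeks, mucosa 1 and tumors 1 to 4).

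Macrophages take up lipoproteins, dying cells and fatty acids, digest them in the lysosome, and pass the freed cholesterol on to extracellular acceptors. TREM2 is a surface receptor for lipids and lipoproteins that signals through the adaptor TYROBP, and cells that use it turn on genes for lipid binding, lysosomal digestion and cholesterol export. Cells of this kind are known from fat tissue in obesity, from atherosclerotic plaques, from microglia around dying neurons and from tumors. Among the members, Trem2, Cd36, Cd9 and Gpnmb encode membrane proteins, Apoe and Lpl secreted proteins, Fabp5 and Lgals3 mainly cytosolic proteins, Lipa a lysosomal enzyme and Abca1 a cholesterol exporter.

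The data have limits that touch every result. Mucosa was released with EDTA and TrypLE and tumors with the Miltenyi tumor dissociation kit, so tissue and dissociation cannot be told apart. The libraries held 57221300 to 116133079 UMIs each, and 108495 of 137591 barcodes were kept as cells, 85953 from tumors and 22542 from mucosa. A tumor cell held a median of 3612 to 4997 UMIs, depending on the tumor, and a mucosa cell 7210 to 9581. The labels call 7 of the 13 libraries female, yet all 13 had Xist at 0.0144 to 0.124 CPM (UMI counts of the gene scaled to a common library total of 1000000 UMIs) and Y-linked genes at 104 to 130 CPM, so sex was not used. No pair of libraries shared more than 34 barcodes, and the largest share of the smaller library was 0.365%. The limit on mitochondrial UMIs, a sign of RNA quality, removed 14.3% to 28.9% of the barcodes of mucosa and 4.29% to 11.5% of those of tumors, and its part in the tissue differences was not tested.

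To place the members among the cells, clusters were built without the members and named from marker genes, with names ending in -like. The myeloid classes of the tumors were C1q+ macrophage-like (6503 cells), Arg1+ macrophage-like (5224), Ly6c+ monocyte-like (8186), neutrophil-like (26305) and dendritic-like (3414). The C1q+ class held its defining markers at high levels in tumors, with C1qa at 4958 ± 103 and C1qb at 5178 ± 374 CPM (SD over 3 mice, tumors averaged within a mouse), and Ly6c2 at 17.7 ± 7.28. Markers of the neighboring classes were also present in it: Arg1 was at 1158 ± 226 CPM (1974 in the Arg1+ class), Thbs1 at 592 ± 203 (3259 in the Arg1+ class) and Fn1 at 501 ± 106 (795 in Ly6c+ monocyte-like cells). Mucosa held 66 C1q+ macrophage-like cells in all (10, 17 and 39 in mucosa 1, 2 and 3), 92 Ly6c+ monocyte-like cells and 2 Arg1+ macrophage-like cells. C1q+ macrophage-like cells made up 4.27% to 10.7% of the cells of a tumor and 0.181% to 0.474% of those of a mucosa sample.

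Of the 10 members, 6 had their highest myeloid level in the C1q+ class: Apoe, Trem2, Gpnmb, Lpl, Cd36 and Lipa. The other 4 peaked elsewhere, Fabp5 in dendritic-like cells, Cd9 and Abca1 in the Arg1+ class and Lgals3 in Ly6c+ monocyte-like cells. These levels are a description of clustered cells and carry no test. CPM here is the gene's share of all UMIs of the summed cells, and it compares cells for 1 gene, not genes with each other. The class with the highest level was the same in all 14 alternatives for 9 members, and Abca1 was highest in the Arg1+ class in 13 of 14.

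**Figure D1:**
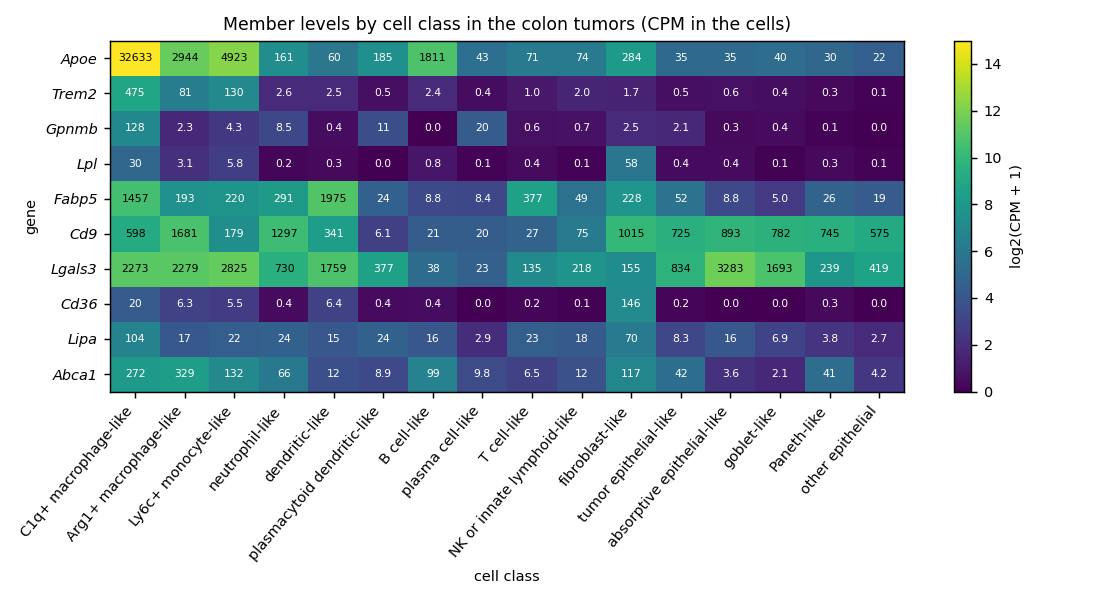
Level of each member (rows) in 16 cell classes (columns) of the colon tumors, as CPM written in each cell and as log2(CPM + 1) by color, averaged over the 3 mice. Apoe stands at 32633 CPM in C1q+ macrophage-like cells, and Cd9 and Lgals3 are spread over myeloid and epithelial classes.

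Trem2, the lipid receptor, was measured at 475 ± 33.0 CPM in C1q+ macrophage-like cells, 130 ± 3.53 in Ly6c+ monocyte-like cells and 81.5 ± 1.29 in the Arg1+ class (SD over 3 mice). It was higher in the C1q+ class than in either in 10 of 10 tumors, by a median ratio of 3.65 and 6.01. Neutrophil-like and dendritic-like cells had 2.55 ± 0.589 and 2.46 ± 1.31 CPM, and their ranges over the tumors overlapped. Gpnmb, a transmembrane glycoprotein of lysosome-rich phagocytes, was at 128 ± 22.7 CPM in C1q+ macrophage-like cells and at 8.54 ± 5.44 in neutrophil-like cells, the next of the myeloid classes. Outside the myeloid cells it stood at 19.9 ± 5.58 CPM in plasma cell-like cells, and every tumor had it there between 12.2 and 27.1 CPM.

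Cd36, a scavenger receptor and fatty acid transporter, had a low level in C1q+ macrophage-like cells (20.0 ± 2.41 CPM) that was still above the Arg1+, Ly6c+, neutrophil-like and dendritic-like classes in 10 of 10 tumors. Its level in fibroblast-like cells was 146 ± 144 CPM over the 7 tumors that had at least 20 such cells. Cd9, a tetraspanin, was lower in the C1q+ class than in the Arg1+ and neutrophil-like classes in every tumor, with 598 ± 102 CPM against 1681 ± 260 and 1297 ± 344. The Arg1+ and neutrophil-like ranges overlapped.

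Apoe, the lipoprotein component that carries exported cholesterol, showed a wide step between the C1q+ class and the other macrophages. Its level was 32633 ± 1048 CPM in C1q+ macrophage-like cells, 4923 ± 547 in Ly6c+ monocyte-like cells and 2944 ± 293 in Arg1+ cells. In each of the 10 tumors the C1q+ level was at least 4.88 times the Ly6c+ level and 9.10 times the Arg1+ level. B cell-like cells had 1811 ± 159 CPM of Apoe in tumors and 1042 and 2088 CPM in the 2 mucosa samples with enough of them, whereas T cell-like cells had 70.5 ± 13.6 CPM in tumors and 3.14 ± 2.12 in mucosa. Lpl, the lipoprotein lipase that frees fatty acids from triglyceride, was at 30.1 ± 13.4 CPM in the C1q+ class and at 57.5 ± 30.02 in fibroblast-like cells, and these ranges overlapped. Among myeloid classes it was next in Ly6c+ monocyte-like cells at 5.79 ± 0.821 CPM, and the C1q+ class was higher in 9 of 10 tumors.

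Fabp5, which carries fatty acids in the cytosol, was at 1975 ± 430 CPM in dendritic-like and 1457 ± 90.2 CPM in C1q+ macrophage-like cells, and these neighbors did not separate, since the C1q+ level was higher in 3 of 10 tumors. Both were above neutrophil-like cells (291 ± 18.6 CPM) in every tumor. Lgals3, a lectin that binds damaged membranes and phagocytosed material, was spread over the myeloid classes, at 2825 ± 110 CPM in Ly6c+ monocyte-like cells, 2279 ± 348 in the Arg1+ class and 2273 ± 335 in the C1q+ class. The last 2 did not separate, with the C1q+ class higher in 4 of 10 tumors.

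Lipa, the acid lipase that hydrolyzes cholesteryl esters and triglycerides in the lysosome, was at 104 ± 9.39 CPM in C1q+ macrophage-like cells, and every tumor had it there above the other myeloid classes, with median ratios of 4.76 to 6.85. Abca1, the transporter that moves cholesterol onto apolipoproteins, was at 329 ± 34.5 CPM in the Arg1+ class and 272 ± 49.4 CPM in the C1q+ class, higher in the Arg1+ class in 9 of 10 tumors. Ly6c+ monocyte-like cells had 132 ± 13.8 CPM of Abca1, and C1q+ cells were above them in 10 of 10 tumors.

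A finer clustering showed that the C1q+ class was not uniform. Its larger piece (4204 of the 6569 cells of the class in both tissues, 4151 of them from tumors, with Ccl8 and C1qa among the leading genes) had Apoe at 41293 ± 1709, Trem2 at 528 ± 52.0, Gpnmb at 164 ± 42.2 and Fabp5 at 1840 ± 193 CPM. A cluster of 3432 tumor cells led by Ccl24, Mmp12 and Arg1, which took 35.2% of the class together with cells of the Arg1+ class, had Apoe at 8247 ± 847, Trem2 at 285 ± 12.9, Gpnmb at 24.0 ± 8.13 and Fabp5 at 427 ± 93.1 CPM. Cd9 ran the other way, at 442 ± 47.3 CPM in the first and 1168 ± 269 in the second. Over the 10 tumors, the ranges of Gpnmb in this pair of clusters overlapped slightly, with a highest value of 39.5 CPM in the second and a lowest of 38.0 in the first, and those of Lpl, Lgals3, Cd36 and Abca1 overlapped as well. Spp1, which encodes osteopontin, was at 1636 ± 309 CPM in the first of these clusters and 2825 ± 1714 in the second, a wide spread over the mice. Dendritic-like cells split as well: the piece led by Ccl22, Fscn1 and Ccr7 (959 cells) had Fabp5 at 5494 ± 1682 CPM, and the other piece (2445 cells) at 536 ± 327 CPM, with no overlap over the tumors.

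To ask which cells carry each member, the UMIs of a gene were divided among the classes of a library. C1q+ macrophage-like cells were on average 7.27% of tumor cells and held 83.0% ± 5.07 of Apoe UMIs, 75.1% ± 4.44 of Trem2, 73.5% ± 8.43 of Gpnmb, 67.4% ± 14.7 of Lpl and 53.8% ± 5.83 of Cd36 (SD over 3 mice). Their share of all UMIs, the like measure, is not their share of cells: the class held 10484475 of 71745224 UMIs in tumor 1 and 2990030 of 50747658 in tumor 10. C1q+ macrophage-like cells held smaller shares of Lipa (45.2% ± 5.96), Fabp5 (43.9% ± 5.23) and Abca1 (32.6% ± 3.25), which were still the largest of any class. Cd9 and Lgals3 lay mostly elsewhere, with 32.5% ± 6.995 of Cd9 UMIs in tumor epithelial-like and 22.3% ± 2.40 in neutrophil-like cells, and 21.1% ± 4.94 of Lgals3 UMIs in absorptive epithelial-like cells, close to the 19.0% ± 4.33 in the C1q+ class. In mucosa the division was different: absorptive epithelial-like cells held 72.6% ± 11.1 of Lgals3 and 63.6% ± 27.2 of Lipa, and other epithelial cells 80.9% ± 6.91 of Fabp5. All epithelial classes together held 83.1% ± 24.2 of Lpl and 75.2% ± 11.6 of Abca1 in mucosa. Apoe and Trem2 were the members of which C1q+ macrophage-like cells held the largest share in mucosa too, at 40.2% ± 14.1 and 50.7% ± 31.2, the latter of only 102 Trem2 UMIs in all.

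**Figure D2:**
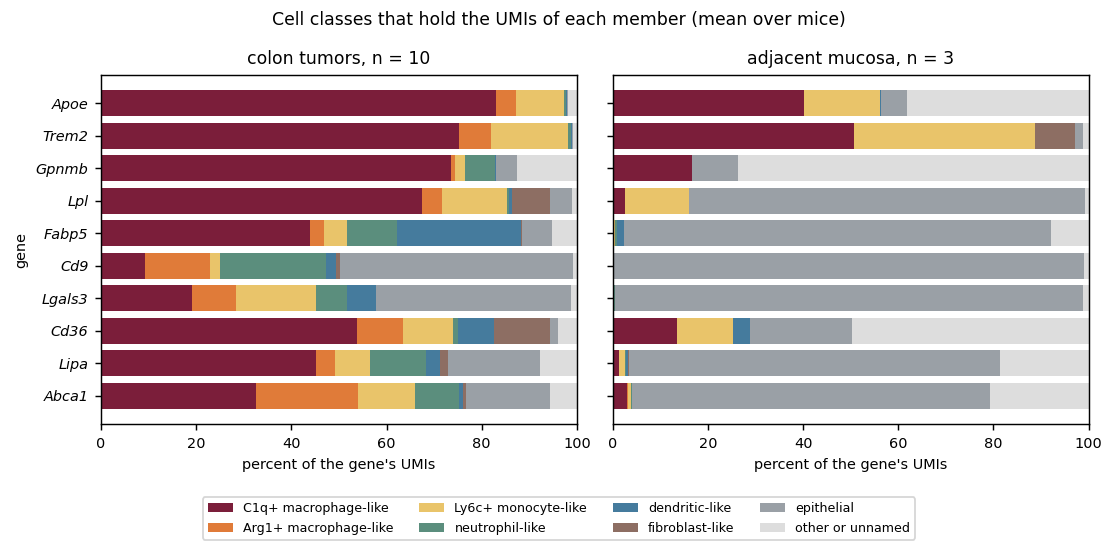
Percent of each member's UMIs held by each cell class, as stacked bars that are means over the 3 mice, for the 10 colon tumors (left) and the 3 mucosa samples (right). In tumors the C1q+ macrophage-like share runs from 83.0% for Apoe to 9.14% for Cd9, and in mucosa epithelial cells hold most of Cd9, Lgals3, Fabp5, Lpl, Lipa and Abca1.

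Tumors were then compared with adjacent mucosa over all retained cells, to ask how much of each transcript the whole dissociated tissue held. In such sums, fewer cells of a type and less RNA per cell cannot be told apart. Of the 10 members, 8 were higher in tumors, Lgals3 was lower and Lpl did not pass the test (edgeR quasi-likelihood test, adjusted p under 0.05 over 17583 genes). This background was wide, with 70.1% of all genes called, 36.3% higher and 33.8% lower. The median log2 fold change of the members was 3.00, and that of all genes tested 0.03. In 7 members every tumor was above every mucosa sample, as was the case for 27.3% of all genes. The counts of 8 and 7 both include Gpnmb, which passed the filter on low counts through the tumors alone.

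Trem2 was at 0.402, 0.147 and 0.706 CPM in mucosa 1, 2 and 3, and the 10 tumors ranged from 41.6 over a median of 64.1 to 92.3 CPM. The groups were far apart, with a log2 fold change of 7.25 ± 0.52 (SE; adjusted p = 6.4e-08). Apoe was at 60.0, 29.9 and 70.2 CPM in mucosa and at 2251 to 5870 CPM in tumors, median 4026, a log2 difference of 6.25 ± 0.45 (adjusted p = 7.6e-08). Gpnmb was at 0.0431, 0.0983 and 0.0683 CPM in mucosa, from 17 UMIs in all, and at 6.82 to 31.6 CPM in tumors, median 14.5. Its log2 fold change was 7.88 ± 0.74 (adjusted p = 7.2e-07). With so few mucosa UMIs, Gpnmb passed the filter on low counts through the tumors alone. Its call and its lack of overlap follow from that and are no further support. None of these 3 genes overlapped between tissues.

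The same held for Abca1, at 3.48, 1.46 and 2.44 CPM in mucosa and 53.2 to 114 in tumors (median 81.1), with a log2 difference of 5.07 ± 0.34 (adjusted p = 3.7e-08). Fabp5 rose from 53.8, 67.4 and 78.4 CPM to 200 to 667 CPM (median 317), a log2 difference of 2.37 ± 0.35 (adjusted p = 4.5e-05). Cd36 and Lipa rose by 3.63 ± 0.43 and 1.28 ± 0.20 on the log2 scale (adjusted p = 5.6e-06 and 6.8e-05), also with no overlap. Single mucosa samples moved 2 of these values: without mucosa 3 the Trem2 difference was 7.90, and without mucosa 1 that of Cd36 was 4.22 (adjusted p = 5.0e-07 and 6.2e-06).

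Cd9, Lgals3 and Lpl behaved differently, with tissue groups that overlapped. Cd9 was at 487, 361 and 443 CPM in mucosa and 460 to 1053 in tumors, a log2 difference of 0.66 ± 0.24 (adjusted p = 0.027), and Lgals3 was at 1004, 3207 and 2729 CPM against 996 to 1767, a difference of -0.87 ± 0.27 (adjusted p = 0.011). Mucosa 1 lay within the tumor range for both genes. Neither call was stable: without mucosa 2 or mucosa 3 the Cd9 difference was 0.55 (adjusted p = 0.12) or 0.68 (0.065), and the Lgals3 difference -0.55 (0.13) or -0.73 (0.064). Lpl was at 2.44, 4.77 and 5.40 CPM in mucosa and 1.02 to 8.61 in tumors, with a difference of 0.15 ± 0.50 (adjusted p = 0.80).

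**Figure D3:**
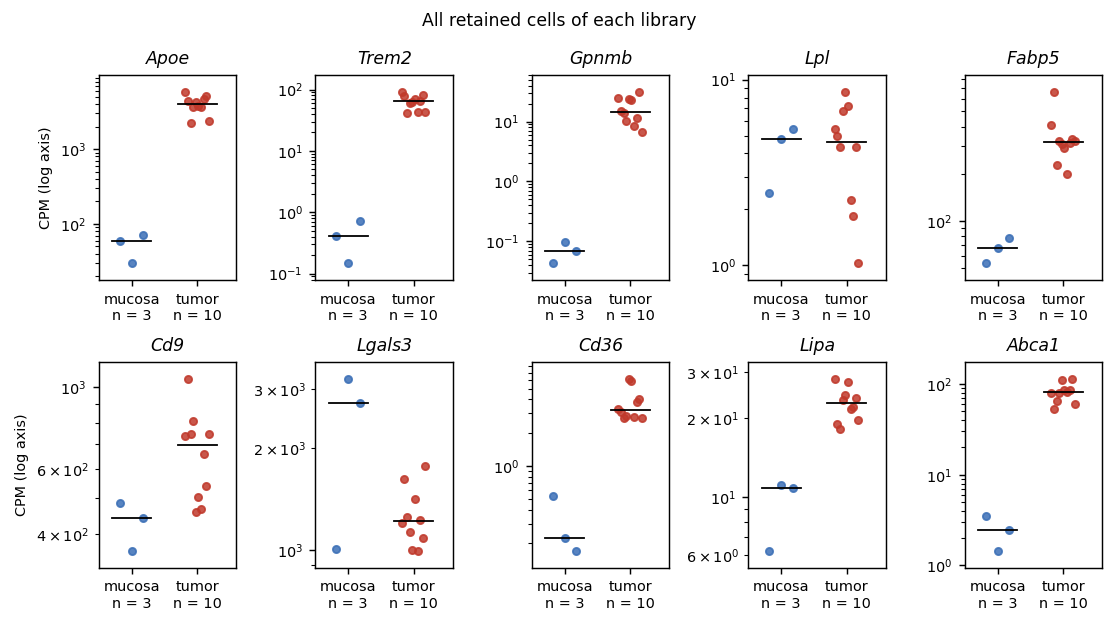
CPM of each member over all retained cells of each library, on log axes, with 1 point per library (3 mucosa samples in blue, 10 tumors in red) and the median as a line. Apoe, Trem2, Gpnmb, Fabp5, Cd36, Lipa and Abca1 separate the tissues fully, while Cd9, Lgals3 and Lpl overlap.

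The comparison within C1q+ macrophage-like cells removes the difference in the number of these cells between tissues, but not a difference in their make-up. The larger finer cluster given above held a greater share of the class in mucosa than in tumors. The finer clusters differ in Apoe, Fabp5 and Cd9, among others, and their part in the tissue differences was not tested. Here 6 of 10 members were higher in tumors (Fabp5, Abca1, Lgals3, Cd9, Apoe and Trem2) and none was lower, while 4.14% of the 11142 genes tested were called, 3.36% higher and 0.781% lower. All 6 also had every tumor above every mucosa sample, as 18.9% of genes did. The median of the members was 1.46 on the log2 scale, against 0.33 for all genes. The split of all calls, 374 higher and 87 lower, turned to 245 and 465 under DESeq2, whose size factors put the median of all genes at -0.26, while the members called there were 7 higher and none lower. The mucosa sums were small, with 62265, 56192 and 156219 UMIs against 2990030 to 10484475 in a tumor. Depth per cell also moved with tissue here, with a median of 4312, 3116 and 4021 UMIs in the C1q+ cells of mucosa 1, 2 and 3 and of 7727 to 12336 in those of tumors, and its part in the differences was not tested.

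Fabp5 changed most among the 6. It was at 64.2, 107 and 64.0 CPM in the C1q+ cells of mucosa 1, 2 and 3, from 20 UMIs in all, and at 828 to 2351 CPM in tumors, median 1455. The means were 78.3 ± 24.6 (SD, n = 3) and 1456 ± 407 CPM (SD, n = 10), an 18.6-fold difference, and the fitted log2 fold change was 4.66 ± 0.43 (SE; adjusted p = 7.0e-06). Tumor 7 was the lowest and tumor 2 the highest of the 10, and the lowest tumor was still far above mucosa 2. The call held in 22 of 22 alternatives.

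Abca1 was at 48.2, 71.2 and 57.6 CPM in mucosa and at 148 to 345 CPM in tumors (median 279), a log2 difference of 2.53 ± 0.32 (adjusted p = 1.1e-04). The call held in 21 of 22 alternatives and the value was 2.42 (adjusted p = 0.051) with mucosa 3 as the only mucosa sample, where the spread comes from the tumors alone.

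For Apoe the step within the class was small beside that over all cells. Its level was 20349, 14628 and 22219 CPM in mucosa and 27997 to 37028 in tumors, median 33099, a log2 difference of 1.14 ± 0.23 (adjusted p = 0.0058). Trem2 was at 112, 89.0 and 339 CPM in mucosa and 374 to 546 in tumors, median 466, a log2 difference of 1.497 ± 0.32 (adjusted p = 0.0091). Mucosa 3, the sample with the most C1q+ cells, lay just under the lowest tumor for Trem2.

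Lgals3 was at 819, 1157 and 1383 CPM in mucosa and at 1620 to 3197 in tumors, with a log2 difference of 1.42 ± 0.29 (adjusted p = 0.0073). Cd9 was at 80.3, 160 and 301 CPM against 312 to 835, a difference of 1.94 ± 0.41 (adjusted p = 0.0084). These calls and that of Trem2 rested on single libraries: without mucosa 1 the differences of Lgals3, Cd9 and Trem2 were 1.21, 1.62 and 1.23 (adjusted p = 0.052, 0.059 and 0.061), and without mucosa 2 those of Cd9 and Trem2 were 1.81 and 1.21 (0.057 and 0.057). Without mucosa 3 they were larger, at 2.87 and 2.72 (0.0077 and 5.0e-04). With mucosa 3 as the only mucosa sample, an alternative added after the cell numbers were seen, in which that lone sample is assumed to vary like the tumors, Fabp5 alone passed, and Apoe stood at 0.76 (adjusted p = 0.27).

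Gpnmb, Lpl, Cd36 and Lipa did not pass the test in the class. Gpnmb had 4 UMIs in the mucosa cells, all in mucosa 2 (0, 71.2 and 0 CPM), against 36.2 to 217 CPM in tumors (log2 difference 3.36, adjusted p = 0.12). The value ran from 2.34 without mucosa 3 to 12.4 without mucosa 2, where no mucosa UMI was left and the fit gives no bound (adjusted p = 0.51 and 0.14). It passed without tumor 7 (3.49, adjusted p = 0.042), with the tumors of each mouse summed (3.47, 0.010) and under DESeq2 (3.00, 0.012). Lpl was at 145, 89.0 and 32.01 CPM in mucosa and 6.67 to 55.4 in tumors, Cd36 at 128, 17.8 and 12.8 against 11.7 to 33.4, and Lipa at 177, 35.6 and 83.2 against 79.0 to 142. The groups overlapped for all 4, and mucosa held 11 to 26 UMIs of each of the last 3.

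Other cell types moved with tissue in these sums. The 7 epithelial lineage markers summed to 64.2 to 765 CPM in mucosa (6 of 7 with a UMI, Cldn4 at 0) and 32.4 to 111 in tumors, and the 7 goblet markers to 225 to 908 against 19.7 to 106. The 6 markers of the Arg1+ class summed to 35.6 to 147 CPM in mucosa, with Inhba, Flrt3 and Egln3 at 0, and to 1005 to 2468 in tumors. The 7 C1q+ markers were at 19144 to 22156 CPM in mucosa and 14337 to 16669 in tumors. The part of these markers in the member differences was not tested.

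**Figure D4:**
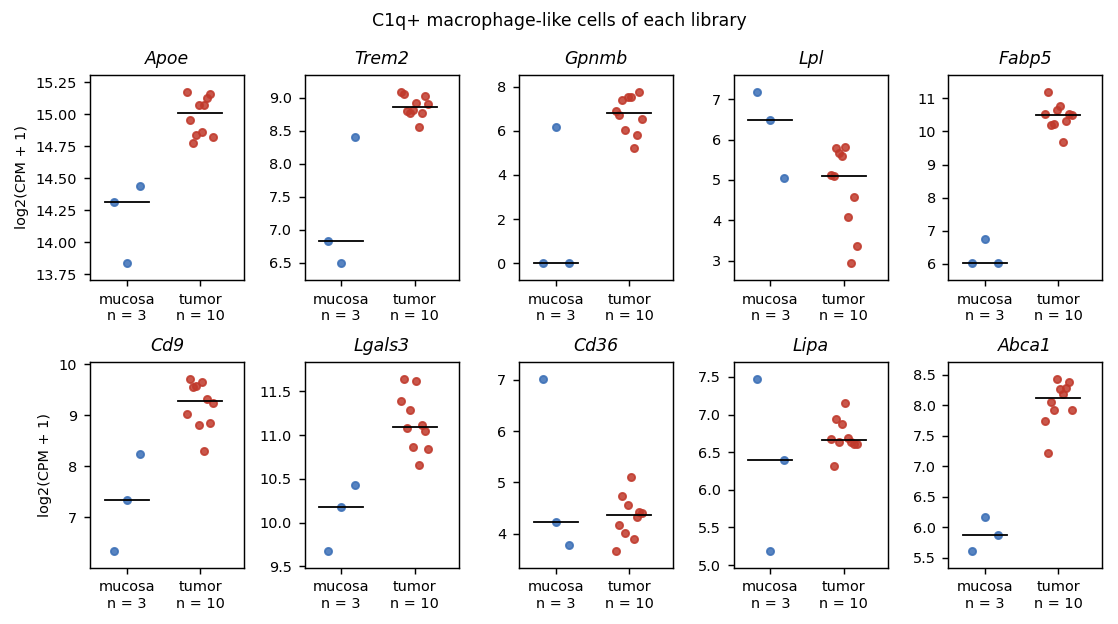
Level of each member in the C1q+ macrophage-like cells of each library as log2(CPM + 1), with 1 point per library (3 mucosa samples in blue, 10 tumors in red) and the median as a line. Fabp5 and Abca1 show wide gaps between tissues, Apoe, Trem2, Cd9 and Lgals3 narrow ones, and Gpnmb, Lpl, Cd36 and Lipa overlap.

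Other genes of lipid handling were counted from lists in the same C1q+ comparison. Of 12 tested genes for lipid uptake and scavenger receptors, 5 were higher in tumors and none lower, of 20 lysosomal genes 6 were higher and none lower, and of 15 genes for fatty acids and lipid droplets 3 were higher and 1 lower. The list medians were 1.44, 0.87 and 0.63 on the log2 scale, against 0.33 for all genes. None of 14 genes for cholesterol efflux and liver X receptor targets passed in edgeR (median 0.58), where 4 had an unadjusted p under 0.05, and DESeq2 called 1, lower in tumors. In edgeR 2 of 13 TREM2 partner and disease-associated microglia genes were higher (median 0.24), and 1 of 12 sterol synthesis genes was lower (median -0.10). DESeq2 called 3 of the uptake genes, all higher, 8 of the lysosomal genes, 1 of them lower, and 4 of the fatty acid genes, 2 of them lower.

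Hilpda, which coats lipid droplets and restrains their breakdown, was at 12.8 to 64.2 CPM in mucosa and 237 to 332 in tumors (log2 difference 3.86 ± 0.38, adjusted p = 1.2e-05). Dgat1, which makes triglyceride, was at 17.9 to 28.0 CPM in tumors and at 0 to 16.1 in mucosa, with a median of 0 (adjusted p = 0.043). Mertk, a receptor for dying cells, was at 30.6 to 67.4 CPM in tumors and 6.40 to 17.8 in mucosa (adjusted p = 0.012). Few mucosa UMIs stand behind these values, also for Hilpda, since 3 counts in the summed mucosa cells are 10.9 CPM. The lysosomal proteases Ctsd and Ctsl rose by 2.67 ± 0.33 and 2.41 ± 0.29 (adjusted p = 1.1e-04 and 7.8e-05), and Syk, the kinase downstream of TYROBP, by 1.64 ± 0.35 (adjusted p = 0.0090). Pparg, a lipid-sensing nuclear receptor, was lower by -3.33 ± 0.74 (adjusted p = 0.013) from 8 UMIs in mucosa, at 0, 53.4 and 32.01 CPM in mucosa 1, 2 and 3 and 1.28 to 3.998 in tumors, so that 1 mucosa sample lay below every tumor. Lower as well was the sterol synthesis enzyme gene Sqle, by -1.58 ± 0.39 (adjusted p = 0.038).

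Spp1 was at 0 in the C1q+ cells of all 3 mucosa samples and at 442 to 3962 CPM in tumors (adjusted p = 2.9e-04). Mfge8, which bridges dying cells to phagocytes, was also at 0 in mucosa and at 47.8 to 632 CPM in tumors (adjusted p = 0.045). Both genes passed the filter on low counts through the tumors alone, and with no mucosa UMI the fits give no bound. In the summed mucosa cells 3 counts are 10.9 CPM, and each single sample is shallower.

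Over all cells the same lists were called more widely, beside a background of 70.1% of genes. Of 13 uptake genes 9 were higher and 2 lower, of 18 fatty acid genes 10 and 8, of 14 efflux genes 7 and 3, of 20 lysosomal genes 18 and 1, and of 13 TREM2 partner genes 10 and 1. Of 12 sterol synthesis genes 10 were lower and none higher, with a median of -0.98. Among the largest differences, the scavenger receptor gene Msr1 rose by 7.70 ± 0.40, the lipase inhibitor gene G0s2 by 8.52 ± 0.48 and Spp1 by 7.53 ± 0.78 on the log2 scale (adjusted p = 5.1e-09, 1.1e-08 and 1.7e-06). Marco, another scavenger receptor gene, was at 0.0197 to 2.81 CPM in tumors and at most 0.0144 in mucosa. It passed the filter on low counts through the tumors alone. Fabp4, a fatty acid carrier gene, was at 3.02 to 16.4 CPM against at most 1.82.

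The efflux genes Arl4c and Apoc2 rose by 3.41 ± 0.35 and 3.36 ± 0.25 (adjusted p = 1.6e-06 and 1.0e-07). The lysosomal regulator Tfec, the proton pump gene Atp6v0d2 and the growth factor Igf1 rose by 7.999 ± 0.44, 5.60 ± 0.92 and 5.74 ± 0.74 (8.5e-09, 1.1e-04 and 1.3e-05). In mucosa Tfec was at 0 to 0.0368 CPM, Atp6v0d2 at 0 to 0.137 and Igf1 at 0.0368 to 0.244. Tfec and Atp6v0d2 passed the filter on low counts through the tumors alone, so their calls are no further support. On the lower side, Fabp2 and Ppara, genes of fat absorption and fatty acid oxidation, differed by -6.66 ± 0.91 and -3.99 ± 0.27 (adjusted p = 2.1e-05 and 4.1e-08). The lipoprotein receptor gene Vldlr was lower by -1.32 ± 0.18 (2.0e-05), and the sterol synthesis genes Lss and Msmo1 by -1.48 ± 0.16 and -1.36 ± 0.18 (1.9e-06 and 1.5e-05). Cd63, Ank, Lpcat3 and Smpdl3a were also lower, by -1.04, -1.12, -0.76 and -0.71 (9.1e-06, 2.3e-04, 2.9e-05 and 0.019).

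In Ly6c+ monocyte-like cells of the dissociated tissues, 5 members passed the test, 4 higher in tumors and 1 lower, beside 8.42% of all genes called (6.27% higher and 2.15% lower of 9546). Here too the split of all calls, 599 higher and 205 lower, turned under DESeq2, to 443 and 629, where 4 members were called higher and 1 lower. Abca1 was at 4.59, 13.4 and 14.4 CPM in mucosa, from 4 UMIs in all, and at 86.2 to 194 CPM in tumors (log2 difference 4.19 ± 0.51, adjusted p = 3.6e-05). Trem2 was at 87.2, 53.4 and 57.6 CPM in mucosa and 111 to 145 in tumors, a log2 difference of 1.29 ± 0.21 (adjusted p = 5.8e-04). Both calls held in 21 of 21 alternatives, and neither gene overlapped between tissues. Every tumor was above every mucosa sample for 3 members and for 8.99% of all genes. The third member was Gpnmb, which passed the filter on low counts through the tumors alone. With no mucosa UMI, any tumor UMI sets the tissues apart, so its lack of overlap is no further support. Gpnmb had 0 of 431693 mucosa UMIs, which allows up to 6.95 CPM, and a tumor mean of 3.53 CPM, so a difference was not detectable at this depth.

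Lpl was the member that was lower in tumor monocytes, at 294, 160 and 0 CPM in mucosa 1, 2 and 3 and 2.77 to 8.55 in tumors (log2 difference -4.36 ± 0.52, adjusted p = 2.7e-05). The mucosa values rest on few cells: 64 UMIs in 24.2% of the 33 cells of mucosa 1 and 12 UMIs in 4.17% of the 24 cells of mucosa 2. Mucosa 3 lay below all tumors, and without mucosa 1 the difference was -2.94 (adjusted p = 0.094). Cd9 and Lgals3 passed with differences of 1.23 ± 0.35 and 0.52 ± 0.16 (adjusted p = 0.033 and 0.045), and both overlapped between tissues. Cd9 was at 101, 80.1 and 122 CPM in mucosa and 115 to 295 in tumors. Lgals3 was at 2015, 2992 and 2921 CPM in mucosa and 2525 to 3338 in tumors, a ratio of means of 1.07, and its tumor mean was above the mucosa sample of the same mouse in 1 of 3 mice. Leaving out mucosa 1, 2 or 3 ended the Cd9 call (1.20, 1.12 and 1.44, adjusted p = 0.20, 0.11 and 0.058). The Lgals3 call was lost without mucosa 1 or 2 or any of tumors 1, 3, 4, 6, 8 and 10 (0.36 to 0.58, adjusted p up to 0.29). Fabp5 and Apoe did not pass (1.18 ± 0.42 and 0.35 ± 0.21, adjusted p = 0.091 and 0.34), but both did with the animal as a replicate block, at 1.32 and 0.51 (adjusted p = 6.1e-04 and 0.046). Apoe was at 3833, 3526 and 7539 CPM in mucosa 1, 2 and 3 and 4138 to 5946 in tumors. Its mean CPM was slightly lower in tumors than in mucosa, by a ratio of 0.966, so the direction of this gene differed between CPM and the TMM-scaled fit. Mucosa 3 lay above every tumor, and without it the fit gave 0.87 (0.0077). Epithelial markers summed to 59.7 to 988 CPM in the mucosa monocytes and 25.6 to 77.8 in those of tumors, with Cdh1 and Cldn4 at 0 in mucosa, and their part was not tested.

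Epithelial cells were summed to ask whether members changed outside the myeloid cells. The sum holds different classes in each tissue, so tissue and epithelial class cannot be told apart in it. Tumors had 13458 tumor epithelial-like, 2774 absorptive epithelial-like and 336 other epithelial cells, and mucosa 30, 4298 and 8938. Paneth-like, goblet-like and enteroendocrine-like cells numbered 835, 374 and 64 in tumors and 4, 1217 and 816 in mucosa. Of the 9 members that passed the filter on low counts (Cd36 did not), 4 were higher in tumors (Abca1, Apoe, Trem2 and Gpnmb) and 3 lower (Lpl, Fabp5 and Lgals3), beside 63.8% of all genes called, 33.7% higher and 30.1% lower. In these 4 members every tumor was above every mucosa sample, as in 32.7% of all genes. Trem2 and Gpnmb each had 2 of 216702752 mucosa UMIs, so they passed the filter through the tumors alone. Their calls and their lack of overlap follow from that and are no further support. Abca1 was at 1.30 to 2.52 CPM in mucosa and 12.1 to 49.3 in tumors, a log2 difference of 3.88 ± 0.39 (adjusted p = 2.9e-06), with no overlap. Lgals3 was at 1134 to 3365 CPM in mucosa and 685 to 2531 in tumors (-1.31 ± 0.37, adjusted p = 0.0071), and Fabp5 at 50.4 to 80.8 and 23.0 to 79.0 (-0.88 ± 0.26, adjusted p = 0.0095), both with overlap. The Lgals3 call was lost without mucosa 2 (-1.04, adjusted p = 0.058) and the Fabp5 call without mucosa 3 (-0.74, 0.060). Lpl was at 1.58 to 5.83 CPM in mucosa and 0.0865 to 1.17 in tumors, lower by -3.61 ± 0.49 (adjusted p = 3.4e-05).

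Levels by class, given as a description, show where these sums come from. In absorptive epithelial-like cells, which both tissues held, Abca1 was at 0.591 to 0.695 CPM in mucosa and 1.63 to 5.53 in tumors, Lgals3 at 7250 to 8772 and 2459 to 6258, and Lpl at 3.65 to 11.5 and 0 to 1.79. These 3 ranges did not overlap, whereas those of Fabp5 did (13.02 to 14.1 CPM in mucosa and 6.03 to 23.0 in tumors). The share of all genes without overlap in this class was not counted, so the gaps cannot be called a trait of the members. Epithelial Abca1 of tumors was at 42.1 ± 6.84 CPM in the tumor epithelial-like class, which held most of those cells, against 3.57 ± 0.261 in the absorptive class (SD over 3 mice). Paneth-like cells had a similar level of 40.8 ± 6.83 CPM, with the tumor epithelial-like class higher in 6 of 10 tumors. Fabp5 of mucosa was highest in other epithelial cells, at 91.0 ± 31.5 CPM, against 51.9 ± 9.43 CPM in the tumor epithelial-like cells of tumors.

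RNA free in the cell suspension adds UMIs of abundant genes to cells that do not express them. The epithelial level of Apoe in a tumor was a median 0.101% of its level in C1q+ cells of that tumor, and that of Trem2 0.0954%, beside 0.0576% to 0.0830% for C1qa, C1qb, C1qc and Ms4a7 and 0.467% for Pf4, which mark the macrophages. The corresponding values were 1.28% for Gpnmb, 3.00% for Fabp5, 13.7% for Abca1, 41.7% for Lgals3 and 117% for Cd9. The epithelial sums of Apoe (10.1 to 61.5 CPM in tumors, 1.66 to 3.97 in mucosa) and of Trem2 (0.164 to 1.02 CPM, and 2 UMIs in mucosa) were thus, relative to the macrophages, above 4 of these 5 markers and below Pf4, and whether they are epithelial expression was not tested. For Gpnmb mucosa also had 2 UMIs, and tumors 0.0865 to 4.17 CPM.

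A direct test of whether the tissue difference itself differed between C1q+ macrophage-like and epithelial cells called 6 members, beside 12.3% of 15709 genes. Fabp5 differed most, higher in the C1q+ cells and lower in the epithelial sum of tumors, which has the mix of classes given above, by 5.77 ± 0.59 on the log2 scale (adjusted p = 1.1e-05), and Lgals3 showed the same opposition by 2.95 ± 0.42 (adjusted p = 1.2e-04). The median over all genes was 0.89, and both members held in 14 of 14 alternatives. Cd9 and Lpl differed by 1.74 ± 0.39 and 2.96 ± 0.81 (adjusted p = 0.0059 and 0.020), and Apoe and Trem2 by -1.79 ± 0.42 and -3.07 ± 0.83 (0.0077 and 0.019), the latter pair against the low epithelial levels described above. With 2 Trem2 UMIs in the mucosa epithelial sum, the epithelial change of Trem2 has no firm bound, and neither has this value. For Lpl the fitted tissue difference was -0.78 in C1q+ cells, where it did not pass, and -3.61 in epithelial cells. Without mucosa 1 the values were 1.22 for Cd9 and -1.52 for Apoe (adjusted p = 0.062 and 0.069), 3.85 for Lpl and -3.68 for Trem2 (0.016 and 0.032), and without mucosa 3 that of Cd9 was 2.68 (0.0019). Lpl and Trem2 did not pass without mucosa 2 (2.91 and -3.03, adjusted p = 0.087 and 0.057) or without mucosa 3 (2.01 and -1.996, 0.26 and 0.41).

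No member passed a test for differences between the 3 mice, which does not show that the mice were alike. In the C1q+ macrophage-like cells of tumors, a joint F test of the 3 mice (edgeR) called 0 of 10 members, with 1 at an unadjusted p under 0.05 (Abca1, p = 0.015, adjusted p = 0.13), beside 4.21% of 11459 genes called. DESeq2 called 0 members as well. The spread between tumors was largest for Lpl (6.67 to 55.4 CPM) and Gpnmb (36.2 to 217 CPM) and smallest for Apoe (27997 to 37028 CPM).

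To see whether members occur in the same cells, each C1q+ macrophage-like cell of the tumors was thinned to 2000 UMIs, which left 6244 of 6503 cells. A UMI of Apoe was then found in a median 98.2% of cells of a tumor, of Lgals3 in 82.6%, of Trem2 in 51.3%, of Fabp5 in 50.2%, of Cd9 in 45.7%, of Abca1 in 37.5%, of Lipa in 14.4% and of Gpnmb in 5.93%. Without thinning the shares were 99.2% for Apoe, 84.3% for Trem2, 69.3% for Fabp5 and 11.04% for Gpnmb. In T cell-like cells thinned in the same way (4473 of 5274 cells), Apoe was found in 12.9%, Trem2 in 0.166%, Gpnmb in 0% and Fabp5 in 24.0%, the last a gene T cells also use. Lpl and Cd36 were the sparsest, at 3.38% and 2.07% of C1q+ cells, so that pairs with either rest on few cells.

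Of the 45 pairs of members, 15 were found together more often in all 10 tumors and 1 less often, a description of cells that share a library. How many pairs of other genes do so was not counted, so the number cannot be called a trait of the members. The class also mixes the finer clusters given above, which differ in Fabp5 and Gpnmb and, in opposite directions, in Apoe and Cd9. Their part was not tested. The widest gap was between Gpnmb and Fabp5. Of 357 cells with a Gpnmb UMI, a median 94.4% also had Fabp5 (81.8% to 100% over tumors), against 47.7% (38.0% to 51.0%) of the 5887 cells without Gpnmb. Cells with Gpnmb also had Trem2 more often (70.5% against 50.3%), as well as Cd9 (65.5% against 43.3%) and Lipa (27.8% against 13.8%). The pair found less often together was Apoe and Cd9: Cd9 was in a median 69.0% of the 128 cells without an Apoe UMI and in 45.4% of those with one. Thinned to 1000 UMIs, 8 pairs were higher in all tumors, 7 of them among the 15. With doublet removal at 1.6% per 1000 barcodes in place of 0.8%, 7 pairs were, 6 of them among the 15, and none was lower in all 10 tumors, since Apoe and Cd9 were found less often together in 9 of 10. There Gpnmb and Fabp5 stayed at 91.4% against 46.3%.

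**Figure D5:**
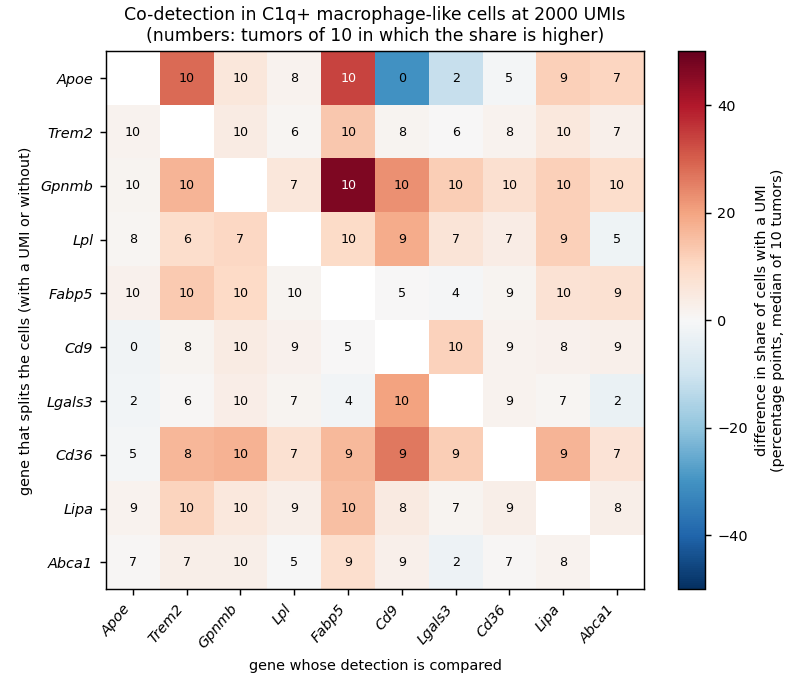
Difference in the share of C1q+ macrophage-like cells with a UMI of the column gene between cells with and without a UMI of the row gene, in percentage points (color, median of the 10 tumors, each cell thinned to 2000 UMIs). The number in each square counts the tumors in which the share was higher, and the row of Gpnmb shows the widest gap at Fabp5, with 94.4% against 47.7%.

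Genes with profiles most like the members were sought over the mean tumor levels of 19 cell classes, among 10342 genes, as a description only. Apoe was closest to C1qb (Pearson r = 0.92), Trem2 to Ccl12, Tfec and Ms4a4a (0.96, 0.95 and 0.95) and Gpnmb to Fcrls (0.73). Lpl was closest to Scarf1 (0.95), Cd36 to Spon1 (0.87), Cd9 to Anxa3 (0.89), Lgals3 to Arrdc4 (0.91), Lipa to Map7d1 (0.89), Fabp5 to Ap1s2 (0.84) and Abca1 to Fn1 (0.83). Between members, Apoe and Trem2 were most alike (0.90), followed by Lpl and Cd36 (0.82) and by Apoe and Abca1 (0.81), and Gpnmb and Cd9 were least alike (-0.05). The classes share libraries, so these values carry no p.

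Abca1 is a known target of the liver X receptor, and it rose in all 4 sums of tumor against mucosa, so its promoter is shown. The gene (ENSMUSG00000015243) lies on the minus strand of chromosome 4, and of the 10 members 8 have a promoter window (250 bases before to 50 after the start) in RefSeq (GRCm38.p6). The windows were searched on both strands for CACGTG, the E-box bound by lysosomal regulators of the MiT family, for TGACTCA, bound by AP-1, and for TGACC followed after 5 bases by TAACC, a liver X receptor pair spelled after the known Abca1 element, so that its match there is by construction. The motifs do not overlap. Among 32851 windows, 7.15% hold the E-box (of the members only Abca1), 5.202% TGACTCA (only Gpnmb) and 0.0487%, or 16 windows, the receptor pair. The stretches of Abca1 that hold matches, with the match in capitals, are the following, at chr4:53159940-53159969 and chr4:53160025-53160054, both on the minus strand and 5′ to 3′.
Abca1 receptor pair: cagcgttTGACCGGTAGTAACCccggcgct
Abca1 E-box: gggccatgtctcCACGTGctttctgctgag
The matches begin 67 and 147 bases before the start site used for the window. The whole gene as listed in RefSeq starts further upstream, at 53159988. By that listing the receptor pair lies inside the gene and the E-box before it. A match is a string of letters and was not tested as a binding site, and windows without one say nothing of a factor.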

How the data were processed

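The authors processed the scRNA-seq reads against mm10 with Cell Ranger 6.0.0, as the submitters' processing notes give them (the file headers name that version too, the study's methods another), and deposited raw UMI counts per gene and barcode for each of the 13 libraries. Barcodes were kept with at least 500 UMIs, 200 genes and under 25% mitochondrial UMIs (14.3% to 28.9% of mucosa and 4.29% to 11.5% of tumor barcodes were over that limit), and the highest doublet scores were removed at 0.8% per 1000 barcodes (10397). The 2000 most variable genes, without the members and list genes, gave 30 principal components, and Leiden clustering at resolution 1 (leidenalg 0.10.2) gave 34 clusters, which were named from marker lists. The members, gene lists and markers were chosen with earlier results of these data known.

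UMI counts were summed per library and class. Sums of at least 10 cells were compared with edgeR 4.0.16 in R 4.3.3 (TMM, quasi-likelihood test, Benjamini-Hochberg over all genes tested, adjusted p under 0.05). Levels needed 20 cells. The named list genes were the 2 with the largest called change in each direction per list, and for likeness the 3 highest correlations (the nearest are given). The fits were tested on simulated data. Alternatives were DESeq2 1.42.0, other filters, doublet and mitochondrial limits, clustering at resolution 2, each library left out, the tumors of a mouse summed, and the animal as a block. Libraries were paired by the animal code in the labels, not by replicate number. Deviations from the group means, over genes, gave, for the tumors set against the mucosa sample of the same mouse (A, B and C), r = 0.12, 0.020 and 0.083 in the all-cell sums. In the epithelial sums r was 0.17, 0.057 and 0.19, and in the C1q+ sums 0.040, 0.0053 and -0.013. Nothing states that tumors of 1 mouse are independent, so p-values measure the spread between these samples. Intervals and floors (3 counts) cover counting error only. Clec7a, a list gene, was not analysed here. The result of 1 further list gene is not reported here.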

Additional observations from a re-analysis of the deposited data

Results flagged for a closer look

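Among 70 sets of 10 tumors (10 members in 7 kinds of sum), 11 had 1 tumor set apart by a gap larger than Dixon's 95% critical value. About 1 in 20 independent sets of normal values would pass it by chance. These sets share their tumors and some rest on few UMIs, so that rate is no measure for the 11. Over all cells, Fabp5 was at 667 CPM in tumor 2, with the next tumor at 407. In epithelial cells the tumor apart was tumor 3 for Fabp5 (79.0 CPM, next 52.3), tumor 7 for Lpl (1.17, next 0.631), tumor 10 for Lgals3 (2531, next 1386) and tumor 9 for Cd36 (0.710, next 0.156). In myeloid classes it was tumor 2 for Lgals3 in Arg1+ macrophage-like cells (3386 CPM, next 2447), tumor 9 for Gpnmb in Ly6c+ monocyte-like cells (12.9, next 4.59) and tumor 8 for Cd9 in dendritic-like cells (496, next 356). In neutrophil-like cells it was tumor 1 for Gpnmb (32.04 CPM, next 12.5), tumor 6 for Lpl (0.786, next 0.381) and tumor 3 for Cd36 (2.33, next 0.616). The Lpl and Cd36 values there are 7 and 10 UMIs, in 0.199% and 0.171% of cells. Epithelial Cd36 in tumor 9 is 16 UMIs, and Gpnmb in the monocyte-like cells of tumor 9 is 77 UMIs in 1.31% of cells. These are not shifts of a whole class.

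The tissue difference of 6 members differed between C1q+ macrophage-like and epithelial cells by the interaction test of edgeR. On the log2 scale the values were 5.77 for Fabp5, 2.95 for Lgals3, 2.96 for Lpl, 1.74 for Cd9, -1.79 for Apoe and -3.07 for Trem2, where a positive value means that the difference of tumor minus mucosa was the higher one in the macrophages. For Lpl that difference was negative in both, at -0.78 and -3.61. The epithelial levels of Apoe and Trem2 behind the last 2 values were low, with 2 Trem2 UMIs in mucosa, and the epithelial sum holds different classes in each tissue, as given above.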

How the results depend on the processing

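Of 108 counts of called members recomputed under an alternative, 102 stayed within 1.5 times the main count. In C1q+ macrophage-like cells 6 members were called; the count was 3 to 7 when libraries were left out in turn, 3 with stricter doublet removal (mucosa 1 then had too few cells) and 1 with mucosa 3 alone, where the spread comes from the tumors. In Ly6c+ monocyte-like cells it was 5, with 2 to 5 when libraries were left out and 3 at a mitochondrial limit of 10%. With the animal as a replicate block 7 members were called there, and the block changed no other call of a member. The genes called in the C1q+ comparison numbered 461, with 255 to 532 when libraries were left out (301 without mucosa 2 and 255 without mucosa 3), 710 under DESeq2 (245 higher and 465 lower, against 374 and 87), 276 with the tumors of each mouse summed, 158 with stricter doublet removal, 273 at resolution 2 and 69 with mucosa 3 alone. The median of all genes there was 0.33, and -0.26 under DESeq2. In monocyte-like cells the 804 genes became 463 with tumors summed and 275 to 836 when libraries were left out. The interaction called 1925 genes, 918 at resolution 2 and 1218 to 2045 when libraries were left out. The test of mice called 482 genes, 826 under DESeq2 and 141 to 850 when tumors were left out. The 15 co-detected pairs became 8 at 1000 UMIs and 7 with stricter doublet removal.

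Signs turned for values that did not pass the test. In C1q+ cells Cd36 (-0.73) ran from -1.45 to 0.76 when libraries were left out and was 0.43 with stricter doublet removal, 0.38 at resolution 2 and 0.82 with mucosa 3 alone, where Lpl (-0.78) became 0.24. Over all cells Lpl (0.15) ran from -0.14 to 0.37 without a library. In monocyte-like cells Cd36 ran from -2.30 to 0.69 and Lipa from -1.003 to 1.58. In epithelial cells Lipa (-0.08) ran from -0.45 to 0.15 and was 0.017 with the replicate block and 0.22 at a mitochondrial limit of 10%. In the interaction Gpnmb ran from -4.55 to 7.83 and was 8.43 at resolution 2, and Cd36 ran from -1.99 to 0.31. Of 948 fold changes, 867 kept their direction and side of the threshold, 54 lost and 12 gained a call, and the cause was not tested. The depth of the 66 mucosa C1q+ cells limits every comparison of tumor with mucosa in that class.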

Other observations

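Gpnmb was also found outside the macrophages. In plasma cell-like cells of tumors it had a UMI in a median 20.2% of cells (13.5% to 27.5% over the 10 tumors), and its level there was 19.9 ± 5.58 CPM (SD over 3 mice), against 1.30 ± 0.644 CPM in the plasma cell-like cells of mucosa. These cells held 11.6% of the Gpnmb UMIs of tumors. B cell-like cells of tumors had no Gpnmb UMI in any library, and T cell-like cells had 0.625 ± 0.262 CPM. This difference between cell classes and tissues was noticed in the data and was not tested.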
